A study of Mus musculus with 2 samples.

Results

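The 9 genes Ptpn22, Ptpn2, Ubash3a, Tagap, Cd226, Sh2b3, Clec16a, Ikzf1 and Il2 are mouse counterparts of genes that lie in human type 1 diabetes risk loci and act in T cells. They were chosen by symbol, and all 9 were found among the 27998 genes of the deposited count matrices. Their RNA was measured in T cells taken from the pancreatic islets of female NOD mice, a strain that spontaneously develops autoimmune diabetes. The wild-type library came from the NOD.Foxp3-EGFP strain and the knockout library from the NOD.Tnfrsf9-/-.Foxp3-EGFP strain, which lacks CD137, the costimulatory receptor encoded by Tnfrsf9, in all cells. Both genotypes carry the Foxp3-EGFP reporter, which makes Foxp3-expressing regulatory T cells (Tregs) fluoresce, and no mouse was treated. Each library was made from islets pooled from 6 mice aged 9 to 10 wk, and sorted CD8 T cells and GFP+ Tregs were sequenced together in it. There was thus 1 library per genotype and no replicate, so no test was possible: every interval below is an exact 95% interval for counting error and takes no account of how mice vary.

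Most of these genes set the strength of signals at the T cell antigen receptor or at cytokine receptors. Ptpn22, Ptpn2 and Ubash3a encode phosphatases or a phosphatase relative that damp kinase signaling below the antigen receptor or cytokine receptors, and Sh2b3 encodes an adaptor that restrains cytokine receptor signaling. Cd226 encodes a costimulatory receptor that competes with the inhibitory receptor TIGIT for the same ligands. Tagap encodes a GTPase-activating protein induced by T cell activation, Clec16a a regulator of the removal of damaged mitochondria and of autophagy, and Ikzf1 the zinc finger factor Ikaros. Il2 encodes interleukin-2, the growth factor that activated conventional T cells secrete and on which Tregs depend, and Foxp3 represses it in Tregs.

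The 9 genes lie on 6 chromosomes of GRCm38 and are all annotated as protein coding. Ptpn22 is at chr3:103859795-103912247 and Il2 at chr3:37120523-37125959, Tagap at chr17:7926000-7934897 and Ubash3a at chr17:31207873-31246892, and Cd226 at chr18:89176967-89272229 and Ptpn2 at chr18:67665511-67724595. Sh2b3 is at chr5:121815488-121837646, Ikzf1 at chr11:11685003-11772926 and Clec16a at chr16:10545339-10744878.

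RNA was counted as unique molecular identifiers (UMIs), 1 for each transcript that was captured, and a level is given as UMIs per 1000000 UMIs (CPM) of all cells of a class in a library. Since reads come from the 3′ end and capture differs between genes, levels were compared only within a gene. The wild-type library held 2804 cell barcodes and the knockout library 2991, with medians of 5075.5 and 4935 UMIs. Of the cells kept, 891 wild-type and 1200 knockout cells were CD8 T cells (at least 2 UMIs of Cd8a and Cd8b1, none of Cd4 or Foxp3), and 1552 and 1444 were Tregs (no Cd8a or Cd8b1 and at least 1 UMI of Cd4, Foxp3, Il2ra or Ikzf2). The UMIs of these 4 pools ranged from 7014920 to 8888924. Tnfrsf9 itself was at 106 CPM in wild-type and 32.0 CPM in knockout CD8 T cells, and at 337 and 110 CPM in Tregs, so transcripts of the locus were lower in the knockout in both lineages and were still counted. Of markers outside the rule, the summed level of 5 Treg genes (Ctla4, Tnfrsf18, Tnfrsf4, Capg and Izumo1r) was 4742 and 3960 CPM in Tregs against 609 and 584 CPM in CD8 T cells. The 4 B cell markers summed to at most 8.60 CPM. The 5 myeloid markers summed to 6.75 to 19.2 CPM, the 5 acinar markers to 13.5 to 28.3 CPM and the 4 endocrine markers to 10.4 to 22.0 CPM. The 3 endothelial markers, nearly all Pecam1, summed to 43.1 and 78.0 CPM in wild-type and knockout CD8 T cells and to 66.6 and 93.3 CPM in Tregs. The part of these markers in the results was not tested. The libraries shared 16 barcodes.

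Promoter sequences of RefSeq (GRCm38.p6) were used for 7 members, with 9 start sites. The promoters of Cd226 and Ptpn2 were left out and not searched. In the 250 bases before these starts, 3 core motifs of factors active in T cells were searched on both strands: GGAAAA (the core of NFAT sites), TGTGGT (the core of RUNX sites) and GGAAGT (a core of ETS sites, which shares its first 4 letters with the NFAT core). GGAAAA was found before 1 of the 9 starts, that of Il2, against 20.4% of 32851 mouse promoters. TGTGGT was found before 1 start, of Ptpn22, against 14.0%, and GGAAGT before 3, of Ptpn22, Sh2b3 and Tagap, against 19.7%. The windows below are shown for Il2, a classical target of NFAT, and for Ptpn22 and Tagap, whose levels went with cell state in these data. Ubash3a, whose level also went with cell state, held none of the 3 motifs. The match of Sh2b3, whose level did so in Tregs, is not shown. Capitals mark the core or, where the motif lies on the other strand, its reverse complement, and each window is written 5′ to 3′ on the strand of its gene.
Il2, minus strand, chr3:37126075-37126102: tcatcagaagaGGAAAAacaaaggtaat
Il2, minus strand, chr3:37125986-37126013: ccccatattatTTTTCCagcattaacag
Ptpn22, plus strand, chr3:103860218-103860245: tttgttgtgtgACCACAgaagctagttt
Tagap, plus strand, chr17:7925849-7925876: aaaaggaatgaGGAAGTgagagcagagc
The first Il2 match began 137 bases before the start site and the second 48, the Ptpn22 match shown, one of 2 RUNX cores there, 48 bases before its downstream start site and the Tagap match 140. The other RUNX core of Ptpn22 began 165 bases before the same start, and 2 ETS cores began 79 and 57 bases before its upstream start. A match of letters describes the sequence and does not show that a factor is bound there, and no match says only that these letters are not in this window.

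Cd226 was the member with the largest difference between the libraries in CD8 T cells and the largest increase in the knockout in Tregs, where Il2, from few UMIs, differed slightly more and was lower. In CD8 T cells its level was 68.9 CPM (483 UMIs, interval 62.8 to 75.3) in the wild type and 174 CPM (1377 UMIs, 165 to 184) in the knockout, 2.53-fold higher, with a log2 ratio of 1.34 (1.19 to 1.49). In Tregs it was 22.0 CPM (196 UMIs, 19.1 to 25.4) and 44.8 CPM (365 UMIs, 40.3 to 49.6), 2.03-fold higher, with a log2 ratio of 1.02 (0.77 to 1.28). The counting intervals of the 2 genotypes did not overlap in either lineage. The share of CD8 T cells with a Cd226 UMI was 31.0% for the wild type and 55.7% for the knockout, that of Tregs was 9.99% and 17.1%, and after each cell was thinned to 2000 UMIs these shares were 14.2, 27.3, 5.56 and 8.71%. No sorted class here lacks Cd226, so no background share could be set beside these. Of 11083 genes with at least 20 UMIs in CD8 T cells, 222 (2.003%) had a higher knockout over wild type ratio, and of 11428 in Tregs, 199 (1.74%).

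**Figure D1:**
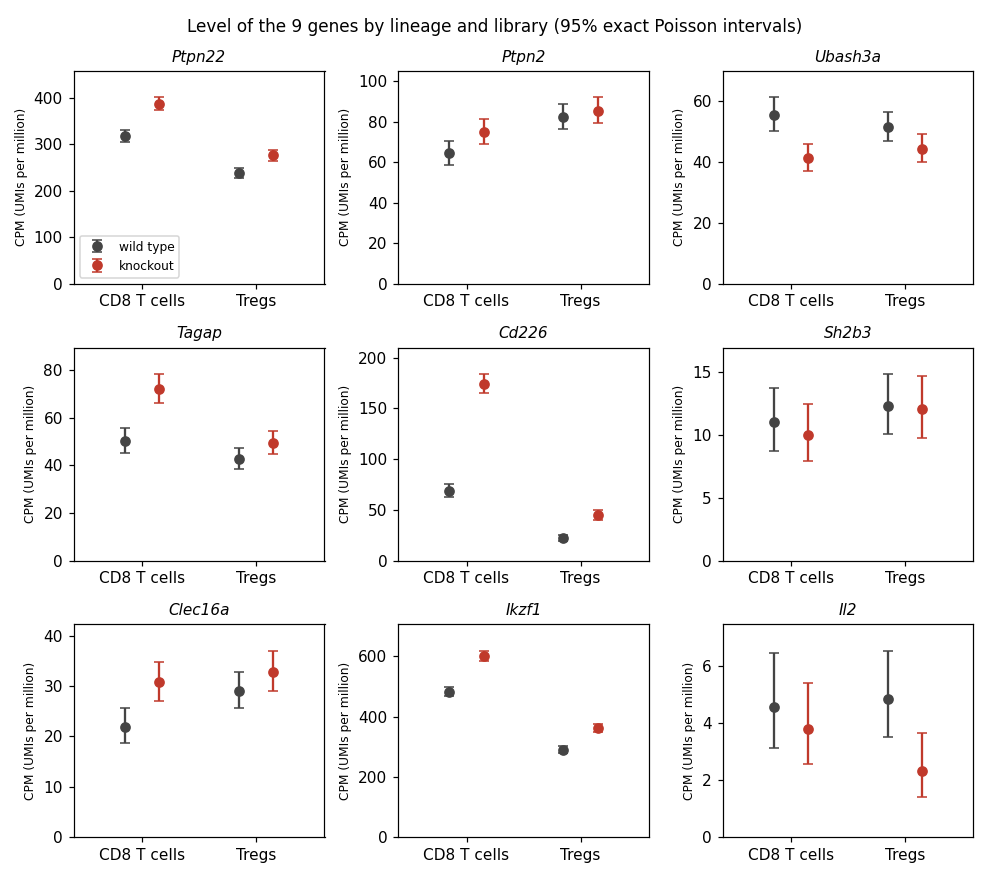
Level of each of the 9 genes in CPM (y axes start at 0, one scale per gene) in CD8 T cells and Tregs of the wild-type (dark grey) and knockout (red) library, with exact 95% Poisson intervals that cover counting error only. Cd226 goes from 68.9 to 174 CPM in CD8 T cells and from 22.0 to 44.8 CPM in Tregs, while the intervals of Sh2b3 overlap throughout.

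The question of this comparison is what the loss of CD137 goes along with in each lineage. In CD8 T cells 1 of 9 members, Cd226, was past 1.5-fold (a log2 ratio of 0.585) and higher in the knockout, and none was past it and lower, where 13.7% of all genes with at least 20 UMIs were past it and higher and 8.2% were past it and lower. The members' median log2 ratio was 0.28, and that of all these genes 0.04. In Tregs 2 of 9 members were past 1.5-fold, Cd226 higher and Il2 lower, where 6.93% of all genes were higher and 3.62% lower, and the medians were 0.17 and 0.04. Both comparisons thus hold few members past the threshold, and smaller differences made up the rest.

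Among the regulators of antigen receptor signaling, Ptpn22 and Ubash3a differed in opposite directions. Ptpn22, a tyrosine phosphatase that acts on Lck and Zap70, was at 319 CPM in wild-type and 387 CPM in knockout CD8 T cells (log2 ratio 0.28, 0.20 to 0.36). In Tregs it was at 238 and 277 CPM (0.22, 0.13 to 0.30). Ubash3a, which restrains signaling below the antigen receptor, was at 55.3 and 41.2 CPM in CD8 T cells (-0.42, -0.64 to -0.21) and at 51.5 and 44.3 CPM in Tregs (-0.22, -0.42 to -0.02). All 4 intervals excluded 0, and all 4 differences were under 1.5-fold. Tagap was at 50.2 and 72.2 CPM in CD8 T cells (0.53, 0.33 to 0.72) and at 42.6 and 49.4 CPM in Tregs (0.21, 0.01 to 0.42). The mouse genome holds a near copy, Tagap1 (chr17:6955011-6961156), with which Tagap could share reads. The UMIs of Tagap1 numbered 8 in wild-type and 12 in knockout CD8 T cells, and 32 and 26 among Tregs, few beside the 352 to 571 of Tagap.

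The regulators of cytokine signaling differed less. Ptpn2, a phosphatase that acts on JAK1, JAK3 and STAT proteins, was at 64.3 and 75.1 CPM in wild-type and knockout CD8 T cells (0.22, 0.05 to 0.40) and at 82.3 and 85.4 CPM in Tregs (0.05, -0.10 to 0.20). Sh2b3 was at 10.98 and 9.99 CPM in CD8 T cells (-0.14, -0.61 to 0.34) and at 12.3 and 12.0 CPM in Tregs (-0.03, -0.44 to 0.38). The sign of Sh2b3 in both lineages and of Ptpn2 in Tregs changed with the processing. With 77 to 109 UMIs per pool, a difference of 1.5-fold in Sh2b3 in CD8 T cells that is lower in the knockout lies inside the interval, so depth limits what can be said of this gene. Clec16a was at 22.0 and 30.7 CPM in CD8 T cells (0.49, 0.19 to 0.79) and at 29.0 and 32.7 CPM in Tregs (0.17, -0.08 to 0.43). Ikzf1 was at 483 and 600.0 CPM in CD8 T cells (0.31, 0.25 to 0.38) and at 291 and 364 CPM in Tregs (0.32, 0.24 to 0.40). These ratios moved apart under the stricter lineage rule (CD8 T cells with at least 1 UMI of each Cd8 gene and none of the 4 Treg genes, Tregs with at least 1 Foxp3 UMI), to 0.43 in CD8 T cells and 0.21 in Tregs.

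The mix of cell states differed between the libraries, and states were therefore set apart by marker UMIs in each cell. These states are ranges of a per-cell score and not cell types. Cycling cells had at least 3 UMIs of Mki67, Top2a, Birc5, Cdk1 and Ube2c, and of the others, naive-marker cells had more UMIs of naive-cell markers, among them Ccr7, Lef1 and S1pr1, than of an effector list in CD8 T cells (Gzmb, Cxcr6, Pdcd1, Lag3, Havcr2, Entpd1, Tox and Ctla4) or a suppressive list in Tregs (Lag3, Itgae, Cxcr6, Icos and Tigit). Effector-marker and suppressive-marker cells had fewer, and ties were left undetermined, which were 13 and 31 CD8 T cells and 158 and 128 Tregs in the wild type and the knockout. Naive-marker cells were 21.5% of wild-type and 51.4% of knockout CD8 T cells, effector-marker cells 56.6 and 37.9%, and cycling cells 20.4 and 8.08%. Among Tregs, naive-marker cells were 22.8 and 34.4%, suppressive-marker cells 57.2 and 45.1%, and cycling cells 9.79 and 11.6%. With the state shares of the wild type given to both libraries, the log2 ratio of Cd226 was 1.28 in CD8 T cells and 0.85 in Tregs, that of Ptpn22 0.49 and 0.31, and that of Ubash3a in CD8 T cells -0.22. That of Ikzf1 was 0.17 in CD8 T cells, down from 0.31, and 0.31 in Tregs. The summed level of 5 genes of CD8 T cells outside the lineage rule and the states (Nkg7, Ccl5, Gzmk, Klrd1 and Eomes) was 13184 CPM in wild-type and 6492 CPM in knockout CD8 T cells. That of 3 natural killer cell markers was 59.4 and 37.8 CPM, nearly all from Tyrobp (416 and 293 UMIs). The other 2 went the other way, with 1 and 5 UMIs of Ncr1 and 0 and 1 of Klrb1c. The part of all these genes in the differences was not tested.

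Cd226 was higher in the knockout in all 6 combinations of lineage and state. In naive-marker CD8 T cells it was at 87.4 CPM in the wild type and 166 CPM in the knockout (log2 ratio 0.93, 0.61 to 1.26), in effector-marker cells at 75.4 and 192 CPM (1.35, 1.13 to 1.57), and in cycling cells at 52.9 and 157 CPM (1.57, 1.26 to 1.89). The counting intervals of the genotypes did not overlap in any of the 3 states. In Tregs it was at 47.4 and 79.6 CPM in naive-marker cells (0.75, 0.34 to 1.17), at 17.7 and 31.8 CPM in suppressive-marker cells (0.84, 0.41 to 1.27), and at 7.01 and 21.6 CPM in cycling cells (1.63, 0.76 to 2.57), the last from 15 and 47 UMIs. In order of level, the 3 knockout CD8 pools stood highest, with overlapping intervals between neighbours. They were followed by wild-type naive-marker CD8 T cells, knockout naive-marker Tregs (interval 68.0 to 92.6) and wild-type effector-marker CD8 T cells, whose intervals overlapped too, and then by wild-type cycling CD8 T cells (44.5 to 62.4) and wild-type naive-marker Tregs (37.0 to 59.8). The other 4 Treg pools were lower. The 2 genes that lie within 1 Mb of Cd226 and had at least 20 UMIs, Rttn and Socs6, were looked at after the Cd226 values were seen. In CD8 T cells Rttn had a log2 ratio of 0.05 (-0.33 to 0.44) and Socs6 of 0.13 (-0.38 to 0.65), and in Tregs 0.40 (0.02 to 0.78) and 0.04 (-0.41 to 0.49).

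**Figure D2:**
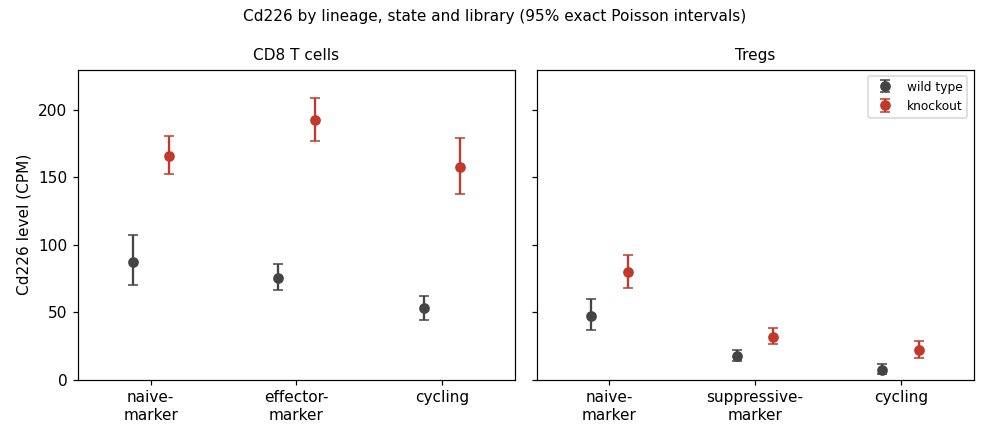
Cd226 level in CPM (y axis from 0, shared by both panels) in naive-marker, effector- or suppressive-marker and cycling cells of the wild-type (dark grey) and knockout (red) library, CD8 T cells on the left and Tregs on the right, with exact 95% Poisson intervals for counting error. The knockout point lies above the wild-type point in all 6 pairs, from 7.01 and 21.6 CPM in cycling Tregs to 75.4 and 192 CPM in effector-marker CD8 T cells.

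The other members varied more in how the genotype difference looked within states. Among naive-marker CD8 T cells 2 members, Tagap and Cd226, were past 1.5-fold and higher in the knockout (15.5% of all genes were), among effector-marker cells 3, Cd226, Clec16a and Il2 (11.5%), and among cycling cells 2, Tagap and Cd226 (12.4%). The Il2 ratio in effector-marker cells rested on 11 and 17 UMIs, and its interval held 0. Among Tregs Cd226 was the 1 member past the threshold and higher in naive-marker (10.9% of all genes), suppressive-marker (7.72%) and cycling cells (8.91%). The members past the threshold and lower were Il2 in cycling CD8 T cells (1 of 9, where 6.48% of all genes were lower) and Il2 in suppressive-marker Tregs (1 of 9, where 4.37% were). These rested on 17 wild-type and 6 knockout UMIs (-0.60, -2.23 to 0.81) and on 28 and 10 (-1.03, -2.23 to 0.06), and both intervals held 0. Ptpn22 was higher in the knockout in each CD8 state, at 176 and 236 CPM in naive-marker, 390 and 541 CPM in effector-marker and 292 and 438 CPM in cycling cells, with log2 ratios of 0.43, 0.47 and 0.58. Its 3 ratios within states were thus each larger than the 0.28 over all CD8 T cells, in which the knockout holds more naive-marker cells. Tagap was at 37.6 and 58.8 CPM in naive-marker CD8 T cells (0.65, 0.15 to 1.17), at 69.5 and 90.8 CPM in effector-marker cells (0.39, 0.12 to 0.65) and at 32.1 and 67.1 CPM in cycling cells (1.06, 0.63 to 1.503). Ubash3a had log2 ratios of -0.09, -0.24 and -0.28 in these 3 states, and all 3 intervals held 0. Ikzf1 had 0.26 (0.13 to 0.39) in naive-marker and 0.15 (0.05 to 0.25) in effector-marker cells, and in cycling cells 396 and 400 CPM (0.01, -0.14 to 0.16).

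**Figure D3:**
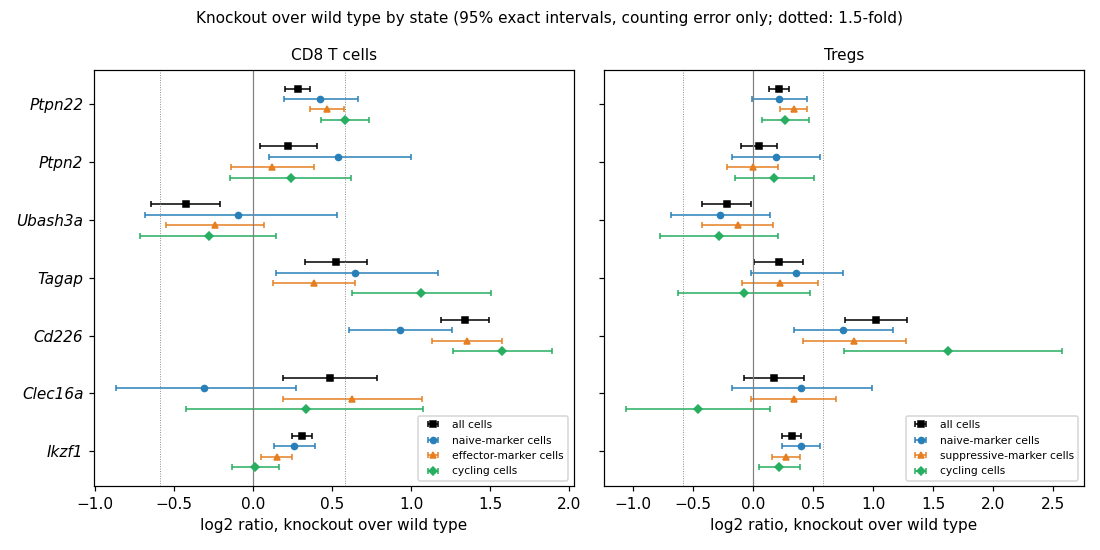
Log2 ratio of the knockout over the wild type (x axis) for 7 genes in CD8 T cells (left) and Tregs (right), over all cells (black squares) and in naive-marker (blue circles), effector- or suppressive-marker (orange triangles) and cycling (green diamonds) cells, with exact 95% intervals for counting error and dotted lines at 1.5-fold. Cd226 lies past the upper line in every row, from 0.75 to 1.63, and no other gene does so in both lineages over all cells.

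Next, the 2 lineages of a library were compared, since CD8 T cells and Tregs were handled in 1 library and share its preparation. CD8 T cells were deeper than Tregs, with median UMIs of 6076 against 4302 in the wild type and 5275 against 4308.5 in the knockout. Cd226 and Ikzf1 were higher in CD8 T cells than in Tregs by more than 1.5-fold in both libraries. Cd226 was at 68.9 and 22.0 CPM in wild-type CD8 T cells and Tregs (log2 ratio 1.64, 1.40 to 1.89) and at 174 and 44.8 CPM in the knockout (1.96, 1.79 to 2.13). Ikzf1 was at 483 and 291 CPM in the wild type (0.73, 0.66 to 0.80) and at 600.0 and 364 CPM in the knockout (0.72, 0.66 to 0.79). Under the stricter lineage rule the wild-type ratio of Ikzf1 was 0.50 (0.35 to 0.66), under 1.5-fold. In the wild type 2 of 9 members were past 1.5-fold and higher in CD8 T cells and none lower, where 8.78% of 11297 genes were higher and 19.4% lower. In the knockout these were 3 and none, where 8.39% were higher and 17.5% lower, and the third was Il2, with 30 and 19 UMIs and an interval that held 0 (0.70, -0.17 to 1.61).

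Smaller lineage differences were seen for several others. Ptpn22 was higher in CD8 T cells in the wild type (0.42, 0.33 to 0.51) and in the knockout (0.49, 0.41 to 0.56), as was Tagap (0.24, 0.02 to 0.45, and 0.55, 0.36 to 0.73). Ptpn2 was lower in CD8 T cells than in Tregs in both (-0.36, -0.53 to -0.19, and -0.19, -0.35 to -0.03). Clec16a was lower in wild-type CD8 T cells (-0.40, -0.70 to -0.11), and in the knockout the interval held 0 (-0.09, -0.35 to 0.16). Ubash3a was at 55.3 and 51.5 CPM in the wild type and at 41.2 and 44.3 CPM in the knockout, and Sh2b3 at 10.98 and 12.3 CPM and at 9.99 and 12.0 CPM, all within counting error between lineages. TMM scaling, which sets pool sizes by the bulk of genes, added 0.15 to each of these log2 ratios in both libraries, and with it Ptpn22 and Tagap were also past 1.5-fold in the knockout.

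Within a library, some members, such as Ptpn22, differed with cell state in the same direction in both lineages, and Tagap in opposite directions. In CD8 T cells, effector-marker cells were compared with naive-marker cells, which had median depths of 5765 and 5201 UMIs in the wild type and 5568 and 5037 in the knockout. In the wild type 4 of 8 members with enough UMIs were past 1.5-fold and higher in effector-marker cells and 1 lower, where 26.2% of 9081 genes were higher and 9.39% lower. In the knockout 4 of 9 were higher and none lower, where 20.5% of 9797 genes were higher and 9.77% lower. Ptpn22, Ubash3a and Tagap were past the threshold in both libraries. Ptpn22 was at 176 CPM in naive-marker and 390 CPM in effector-marker cells in the wild type (1.15, 0.93 to 1.38) and at 236 and 541 CPM in the knockout (1.20, 1.07 to 1.32). Ubash3a was at 30.1 and 63.0 CPM (1.07, 0.52 to 1.65) and at 28.2 and 53.3 CPM (0.92, 0.54 to 1.30). Tagap was at 37.6 and 69.5 CPM (0.89, 0.40 to 1.41) and at 58.8 and 90.8 CPM (0.63, 0.36 to 0.90). TMM scaling took 0.15 off the wild-type and 0.17 off the knockout log2 ratios of this comparison. With it the knockout ratio of Tagap was 0.46 (0.19 to 0.73), under 1.5-fold, and under the stricter lineage rule it was 0.25 (-0.14 to 0.64).

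None of the remaining members was past 1.5-fold with CD8 state in both libraries. Ptpn2 was at 48.8 and 75.7 CPM in naive-marker and effector-marker cells of the wild type (0.63, 0.19 to 1.09, and -0.012 in cells thinned to 2000 UMIs) and at 70.9 and 82.3 CPM in the knockout (0.22, -0.05 to 0.48). Cd226 was at 87.4 and 75.4 CPM in the wild type (-0.21, -0.56 to 0.15) and at 166 and 192 CPM in the knockout (0.21, 0.04 to 0.38). The signs of Cd226 were not opposite throughout: the wild-type ratio was 0.21 (-0.22 to 0.67) under the stricter lineage rule, and with TMM scaling the knockout ratio was 0.04 (-0.13 to 0.21). Ikzf1 was slightly lower in effector-marker cells in both, at 575 and 523 CPM (-0.14) and at 690 and 581 CPM (-0.25, -0.34 to -0.16). The wild-type ratio of Ikzf1 changed sign with the processing, ranging from -0.29 to 0.13. Clec16a was at 35.7 and 23.6 CPM in the wild type (-0.60, -1.18 to 0.00, and -0.23 under the stricter lineage rule) and at 28.8 and 36.4 CPM in the knockout (0.34, -0.07 to 0.75). Il2 rested on 7 and 17 UMIs in the knockout (1.47, 0.12 to 2.98) and on 4 and 11 in the wild type, too few for the minimum of 20.

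In Tregs, 3 members were lower in suppressive-marker than in naive-marker cells by more than 1.5-fold, and of these Tagap was the 1 that was higher with effector markers in CD8 T cells of both libraries with intervals excluding 0. Of 9 members in the wild type, 2 were past 1.5-fold and higher in suppressive-marker than in naive-marker cells and 3 lower, where 15.1% of 9877 genes were higher and 9.02% lower. The 2 higher were Ptpn22 and Il2. The Il2 log2 ratio of 1.18 rested on part of the 43 Il2 UMIs of wild-type Tregs, and its interval held 0. Of 8 members with enough UMIs in the knockout, 1 was higher and 3 lower, where 12.8% of 9744 genes were higher and 8.94% lower. Median depths were 4496.5 and 3409 UMIs in the wild type and 4559 and 3456 in the knockout. Tagap, Cd226 and Sh2b3 were the lower members in both libraries. Tagap was at 60.1 CPM in naive-marker and 39.6 CPM in suppressive-marker Tregs of the wild type (-0.60, -0.97 to -0.22) and at 77.2 and 46.3 CPM in the knockout (-0.74, -1.06 to -0.41). Cd226 was at 47.4 and 17.7 CPM (-1.42, -1.90 to -0.94) and at 79.6 and 31.8 CPM (-1.32, -1.69 to -0.97). Under the stricter lineage rule the knockout ratio of Cd226 was -0.57 (-1.37 to 0.24), under 1.5-fold and with an interval that held 0. Sh2b3 was at 24.7 and 8.65 CPM (-1.51, -2.20 to -0.83) and at 18.1 and 10.1 CPM (-0.84, -1.55 to -0.14), from 34 to 40 UMIs per pool.

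Ptpn22 was the 1 member that was past 1.5-fold with state in the same direction in both lineages and both libraries. In Tregs it was at 168 CPM in naive-marker and 289 CPM in suppressive-marker cells of the wild type (0.78, 0.59 to 0.98) and at 196 and 366 CPM in the knockout (0.90, 0.74 to 1.07). Ubash3a, higher in effector-marker CD8 T cells, was at 62.1 and 52.6 CPM in naive-marker and suppressive-marker Tregs (-0.24, -0.59 to 0.12) and at 51.5 and 48.1 CPM in the knockout (-0.10, -0.46 to 0.27). Tagap was thus higher with effector markers in CD8 T cells and lower with suppressive markers in Tregs, and each of its 4 intervals excluded 0 in the main setting. Ptpn2 was at 68.8 and 92.8 CPM (0.43, 0.12 to 0.76) and at 78.6 and 92.7 CPM (0.24, -0.04 to 0.52), and Ikzf1 at 341 and 283 CPM (-0.27, -0.42 to -0.12) and at 449 and 343 CPM (-0.39, -0.51 to -0.26). The marker lists of the lineages differ, so these state comparisons are alike in kind only.

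**Figure D4:**
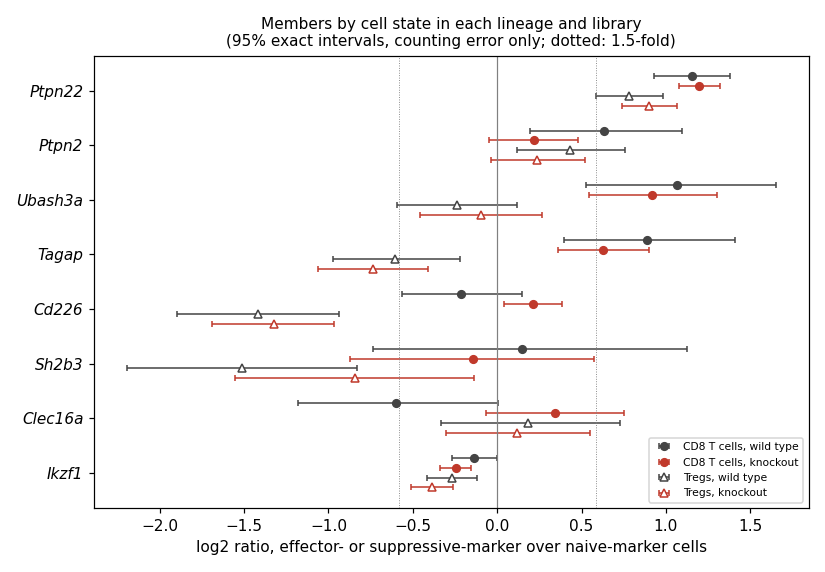
Log2 ratio of effector-marker over naive-marker CD8 T cells (filled circles) and of suppressive-marker over naive-marker Tregs (open triangles) in the wild-type (dark grey) and knockout (red) library for 8 genes, with exact 95% intervals for counting error and dotted lines at 1.5-fold. Ptpn22 lies right of 0 in all 4 rows (0.78 to 1.20), while Tagap lies right of 0 in CD8 T cells (0.89 and 0.63) and left of it in Tregs (-0.60 and -0.74).

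Cycling cells, with median depths of 12371 to 14100 UMIs, had lower levels of most members than the effector-marker or suppressive-marker cells of the same library. In wild-type CD8 T cells Tagap, Sh2b3 and Clec16a were past 1.5-fold and lower (3 of 9 members, against 21.1% of all genes), and in the knockout Sh2b3 and Clec16a were (2 of 9, against 22%). In wild-type Tregs Ptpn22, Cd226 and Il2 were lower by more than 1.5-fold (3 of 9, against 25.6% of all genes), and in knockout Tregs Ptpn22, Ubash3a, Tagap and Clec16a were (4 of 8, against 26.5%). The log2 ratio was below 0 for every member with enough UMIs in each of these 4 comparisons except Il2 in wild-type CD8 T cells, from 17 UMIs in cycling and 11 in effector-marker cells (0.91, -0.27 to 2.15). Median log2 ratios of the members were -0.42 and -0.44 in CD8 T cells and -0.51 and -0.61 in Tregs, against -0.09, -0.11, -0.17 and -0.19 over all genes. Sh2b3 and Il2 held 363 and 124 UMIs over all classed cells, so their calls here rest on few UMIs. The count in knockout CD8 T cells was near the share of all genes.

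A second split set cells with at least 3 UMIs of Egr2, Irf4, Nr4a1, Nfkb1 and Nfkb2, genes induced by antigen receptor signals, against cells with none. Tagap was the member that followed this split most clearly in CD8 T cells. It was at 40.8 CPM in cells with none and 74.8 CPM in cells with 3 or more in the wild type (0.87, 0.47 to 1.29), and at 57.3 and 93.8 CPM in the knockout (0.71, 0.39 to 1.04). In the wild type 1 member was past 1.5-fold and higher (12.9% of all genes were), and in the knockout 2, Tagap and Il2 (15.4%). The Il2 ratio of the knockout came from 5 and 17 UMIs (1.48, -0.02 to 3.27). In Tregs Tagap showed no such difference, with 43.7 and 47.1 CPM in the wild type (0.11, -0.32 to 0.56) and 61.3 and 47.5 CPM in the knockout (-0.37, -0.75 to 0.02). Cd226 was lower in Tregs with 3 or more than in those with none, at 38.3 and 15.2 CPM (-1.33, -1.88 to -0.77) and at 71.4 and 26.5 CPM (-1.43, -1.85 to -1.02). It was 1 member past 1.5-fold and lower in the wild type (15.9% of all genes were) and 1 of 3 in the knockout (16.4%), with Ubash3a and Sh2b3. Cells with 3 or more were deeper, with median UMIs of 9293 against 5329 in wild-type and 7351.5 against 4875 in knockout CD8 T cells, and 6221 against 3252 and 6228 against 3410 in Tregs, and the part of depth was not tested.

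Il2 was close to the detection limit in every pool. Its UMIs numbered 32 over the 891 CD8 T cells of the wild type and 30 over the 1200 of the knockout, and 43 over 1552 and 19 over 1444 Tregs. These came to 4.56, 3.79, 4.84 and 2.33 CPM. In CD8 T cells the log2 ratio of the knockout over the wild type was -0.27 (-1.03 to 0.50), and in Tregs it was -1.05 (-1.92 to -0.24). In the wild type, 3.59% of CD8 T cells held an Il2 UMI (2.47 to 5.03%), as did 2.71% of Tregs (1.96 to 3.64%), where Foxp3 represses the gene, at median depths of 6076 and 4302 UMIs. In the knockout the shares were 2.08% (1.35 to 3.06%) and 1.32% (0.79 to 2.05%), at median depths of 5275 and 4308.5 UMIs. Thinned to 2000 UMIs, the shares were 0.92 and 1.02% in wild-type CD8 T cells and Tregs and 1.01 and 0.43% in the knockout, each from 6 to 15 cells. In the wild type the share in CD8 T cells was not distinguishable from that in Tregs at this depth. No class here is known to lack Il2 RNA, so these shares cannot tell background from expression. In the knockout the intervals of the shares overlapped, but the log2 ratio of CD8 T cells over Tregs, 0.70 with all UMIs, was 1.55 (0.10 to 3.21) in thinned cells, an interval that excluded 0, so the shares give no firm order there. All 32 wild-type CD8 T cells with Il2 held 1 UMI, whereas 1 of the 25 knockout cells held 4.

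Genes that work with the members were described from 4 lists, each beside the share of all genes past 1.5-fold. Of 14 signaling partners (kinases, adaptors, ubiquitin ligases and other proteins on which the members act), 2 were past 1.5-fold and higher in knockout CD8 T cells and none lower, where 13.7% of all genes were higher and 8.2% lower, a count near that share. Their median log2 ratio was 0.01. Among these was Ptprc, the phosphatase CD45 (646 and 980 CPM, 0.60). Partners within 1.5-fold included Fyn, a Src family kinase (557 and 404 CPM, -0.46), and Itgal, the integrin chain CD11a (163 and 118 CPM, -0.46). In Tregs 1 of 14 was past it and higher, again Ptprc (723 and 1137 CPM, 0.65), where 6.93% of all genes were, and the median was -0.03. Of 10 genes of the IL-2 receptor pathway none was past 1.5-fold over all cells of either lineage, with medians of 0.32 in CD8 T cells and 0.00 in Tregs. Within naive-marker, effector-marker and cycling CD8 T cells the pathway medians were -0.07, 0.06 and 0.20, against 0.11, 0.07 and 0.05 over all genes. The part of the mix of states in these list values was not tested. The widest pathway differences over all CD8 T cells were those of Bcl2, a survival gene (148 and 213 CPM, 0.52), and Il2rb, the receptor β chain (158 and 116 CPM, -0.44). Il2ra, the receptor α chain, which the lineage rule uses, was at 11.1 and 9.99 CPM in wild-type and knockout CD8 T cells and at 146 and 187 CPM in the Tregs.

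Between lineages the IL-2 receptor pathway differed more. In the wild type 6 of its 10 genes were past 1.5-fold and lower in CD8 T cells than in Tregs and 1 higher, where 19.4% of all genes were lower and 8.78% higher, with a median log2 ratio of -0.74, against -0.12 over all genes. In the knockout these were 4 and 1, where 17.5% were lower and 8.39% higher, with a median of -0.51 against -0.15. Cish, a feedback inhibitor induced by STAT5, was at 21.5 and 62.5 CPM in wild-type CD8 T cells and Tregs (-1.54), and Stat5b at 103 and 209 CPM (-1.01). Bcl2 was the 1 gene past it and higher, at 148 and 92.5 CPM (0.68). Of the signaling partners 3 of 14, near the share of all genes, were lower in wild-type CD8 T cells, among them the ubiquitin ligase gene Cbl (77.0 and 153 CPM, -0.99) and the adaptor gene Lcp2 (100.5 and 165 CPM, -0.72), and in the knockout 1 of 14, Cbl (101 and 184 CPM, -0.87). With state, 6 of 14 partners were past 1.5-fold and higher and 1 lower in effector-marker over naive-marker CD8 T cells in each library, where 26.2% of all genes were higher and 9.39% lower in the wild type and 20.5% and 9.77% in the knockout. The widest was that of Fyn (215 and 738 CPM in naive-marker and effector-marker wild-type cells, 1.78).

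Relatives of the members behaved differently from them in several cases. Of 14 relatives, 12 had enough UMIs in knockout over wild type CD8 T cells, of which 1 was past 1.5-fold and higher (13.7% of all genes were) and none lower, with a median log2 ratio of 0.07. This was Il21, which neighbours Il2 (2.85 and 5.44 CPM, 0.93, 0.13 to 1.77). Tigit and Cd96, receptors for the same ligand family as Cd226, were at 23.1 and 17.6 CPM (-0.39, -0.73 to -0.06) and at 82.5 and 102 CPM (0.31, 0.15 to 0.46). In Tregs none of 12 was past it, and the median was 0.02. Ubash3b, the closest relative of Ubash3a, was lower in CD8 T cells than in Tregs, at 79.7 and 212 CPM in the wild type (-1.41, -1.55 to -1.28) and at 65.6 and 225 CPM in the knockout (-1.78, -1.92 to -1.64), whereas Ubash3a was within counting error between lineages. Ikzf4, a relative of Ikzf1 known as a Treg gene, was at 16.4 and 107 CPM in the wild type (-2.71), where Ikzf1 was higher in CD8 T cells.

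Of 18 other genes of type 1 diabetes risk loci, 5 were past 1.5-fold and higher in knockout than in wild-type CD8 T cells and 2 lower, where 13.7% of all genes were higher and 8.2% lower, with a median log2 ratio of 0.20. The widest were Bach2, a transcriptional repressor of effector genes (151 and 358 CPM, 1.25), Il7r, the IL-7 receptor of naive and memory cells (56.9 and 131 CPM, 1.21), Cd69, an activation and retention marker (181 and 363 CPM, 1.01), and Il21. Naive-marker cells were 21.5% of wild-type and 51.4% of knockout CD8 T cells. Among them alone 1 of 15 genes with enough UMIs was past 1.5-fold and higher (15.5% of all genes were). Among effector-marker cells 4 of 18 were higher and none lower (11.5% of all genes were higher). Among cycling cells 8 of 15 were higher and 1 lower, where 12.4% of all genes were higher and 6.48% lower. Within naive-marker cells Bach2 was at 399 and 563 CPM (0.49) and Il7r at 179 and 207 CPM (0.21, -0.03 to 0.45), both under the threshold. In Tregs 1 of 17 was past it and higher, Gpr183, an oxysterol receptor (62.5 and 109 CPM, 0.81), where 6.93% of all genes were, and none was lower, with a median of 0.09. In wild-type CD8 T cells over Tregs, 1 of 18 was higher and 9 lower, where 8.78% of all genes were higher and 19.4% lower, led by Il10 (6.56 and 99.0 CPM, -3.92), Ikzf4 and Ctla4 (289 and 1567 CPM, -2.44).

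Finally, the genes whose level went most closely with that of a member were listed over 12 pools (2 libraries, 2 lineages and 3 states), by Pearson's r of log2(CPM + 10) among 6754 genes with at least 500 UMIs. The pools share libraries and cell state, so r is a description only. Cd226 was closest to Adgre5 (r = 0.96), which encodes the adhesion receptor CD97, and Stk26 (0.93), and Ptpn22 to Hip1r (0.95) and Rbpj (0.95), the DNA-binding partner of Notch. Tagap was closest to Tbl1x and Sesn3 (both 0.93), Ubash3a to Smap1 (0.93) and Ptpn9 (0.91), and Ptpn2 to Dnajc1 and Sik3 (both 0.94). Ikzf1 was closest to Apol7e (0.95) and Btbd11 (0.94), and Clec16a to Creb1 and Ralgapa1 (both 0.91). Sh2b3 (363 UMIs) and Il2 (124 UMIs) were under the minimum.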

How the data were processed

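CD8 T cells and GFP+ Tregs of the islets were sorted by the authors and sequenced with the Chromium Single Cell 3′ v2 kit. The authors deposited counts: UMIs per gene and called cell barcode, made with Cell Ranger 7.0.0 on mm10 per the submitters' processing notes, not normalized. The gene annotation and whether intron reads were counted are not given in the sources used here. Libraries totalled 19904506 (wild type) and 19639995 (knockout) UMIs.

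The cell limits of the study (200 to 5000 genes, no more than 20% mitochondrial UMIs) kept 2714 and 2915 cells and removed 90 and 76. Lineages followed the rule in the report, and 271 cells per library fell in neither. No doublet caller was applied: 36 and 39 cells with at least 2 Cd8a and Cd8b1 UMIs were left out because they also held Cd4 or Foxp3 UMIs, and results were recomputed without the deepest 5% of cells. Groups came from the sample labels. UMIs were summed per library and class. Levels have exact Poisson, shares exact binomial (Clopper-Pearson) and ratios exact conditional intervals (95%), for counting error only. Ratios used genes with at least 20 UMIs over both pools, and called means at least 1.5-fold. All genes were computed, and all members are described. Of each list, up to 4 genes with the largest absolute log2 ratio were named in a comparison, not all of them reported here, and a few more after their values were seen, for relation to a member (Tigit, Cd96, Ubash3b, Ikzf4, Stat5b and Il2ra). The members and all lists were chosen with earlier results of these data known, and state markers overlap them in Tigit, Ctla4 and Icos. Positions came from GENCODE vM21 and promoters from RefSeq, both of the reference strain, while these mice are NOD. Python 3.11.15, numpy 2.4.6, scipy 1.17.1, pandas 2.3.3, matplotlib 3.10.9, R 4.3.3 and edgeR 4.0.16 (TMM factors only) were used, and the interval steps were tested on simulated data. The alternatives were TMM scaling, equal cell weights, thinning to 2000 UMIs, narrower cell limits, a stricter lineage rule, fewer deep cells, no cycling cells, a minimum of 100 UMIs, a fixed mix of states, and no shared barcodes.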

Additional observations from a re-analysis of the deposited data

Results flagged for a closer look

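In 7 cases the direction of a log2 ratio was opposite between lineages or libraries. None of these differences was tested, since each group is 1 library, and each ratio is given with its direction only.

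Between lineages, Tagap was higher in effector-marker than in naive-marker CD8 T cells (0.89 for the wild type, 0.63 for the knockout) and lower in suppressive-marker than in naive-marker Tregs (-0.60 and -0.74). It was the 1 case in which all 4 counting intervals excluded 0. Under the stricter lineage rule the knockout CD8 ratio of Tagap was 0.25, with an interval that held 0. Ubash3a had 1.07 and 0.92 in CD8 T cells and -0.24 and -0.10 in Tregs, where both Treg intervals held 0. Both of these Treg ratios changed sign with the processing, ranging from -0.68 to 0.02 in the wild type and from -0.78 to 0.23 in the knockout.

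Between libraries, Ubash3a in CD8 T cells over Tregs had 0.10 in wild-type and -0.10 in knockout cells, and Il2 had -0.085 and 0.70, with all 4 intervals holding 0. Here too both Ubash3a ratios changed sign with the processing (-0.05 to 0.25 in the wild type, -0.31 to 0.05 in the knockout). In effector-marker over naive-marker CD8 T cells, Cd226 had -0.21 in wild-type and 0.21 in knockout cells, Sh2b3 0.15 and -0.15, and Clec16a -0.60 and 0.34. The knockout ratio of Cd226 was the 1 among these 6 whose interval excluded 0, and it held 0 with TMM scaling (0.04, -0.13 to 0.21). Under the stricter lineage rule the wild-type ratio of Cd226 was 0.21, of the same sign as the knockout.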

How the results depend on the processing

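No paired analysis was possible because the labels carry no replicate numbers and each genotype is 1 library, so no replicate could be left out either. Of 70 member ratios, 51 kept their sign in every setting that gave a value. Not each of the 10 alternatives applied to each ratio. With the main setting included, ratios had 5 to 10 values, and those between states had 5 to 7. The log2 ratio of Cd226 in the knockout over the wild type ranged from 1.03 to 1.34 in CD8 T cells and from 0.81 to 1.09 in Tregs. That of Ptpn2 in Tregs ranged from -0.33 to 0.21 and that of Il2 in CD8 T cells from -0.34 to 0.47, and both changed sign, as did Sh2b3 in both lineages (-0.40 to 0.09 and -0.18 to 0.22). One ratio past 1.5-fold turned, Ptpn2 in wild-type effector-marker over naive-marker CD8 T cells, from 0.63 to -0.012 in thinned cells.

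The number of members past 1.5-fold went from 3 to 5 with TMM scaling in knockout CD8 T cells over Tregs, with Ptpn22 and Tagap added, and from 1 to 2 under the stricter lineage rule in the knockout over the wild type in CD8 T cells, with Ubash3a (lower) added. Under it, single ratios fell below 1.5-fold: Ikzf1 in wild-type CD8 T cells over Tregs (0.73 to 0.50), Cd226 in knockout suppressive-marker over naive-marker Tregs (-1.32 to -0.57), and Tagap in the knockout (0.63 to 0.25) and Clec16a in the wild type (-0.60 to -0.23) in effector-marker over naive-marker CD8 T cells. The ratio of Tagap also fell below it with TMM scaling (0.46), as did that of Ptpn2 in the wild type (0.48), and that of Clec16a with equal cell weights (-0.52). The stricter rule left 2 of 4 in knockout effector-marker over naive-marker CD8 T cells. A minimum of 100 UMIs, which removes Il2, left 1 of 2 in the knockout over the wild type in Tregs, and it left 3 of 5 in wild-type suppressive-marker over naive-marker Tregs, without Il2 and Sh2b3. The share of cells with an Il2 UMI fell on thinning to 0.92% and 1.02% in wild-type CD8 T cells and Tregs and to 1.01% and 0.43% in the knockout, was 2.12% in wild-type CD8 T cells without cycling cells, and 1.95% in wild-type Tregs under the stricter rule. Beyond these, the cause of a change was not tested. The 2 libraries cannot tell genotype from mouse, pool or sort, and Sh2b3 and Il2 are limited by depth.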
